A study of Mus musculus with 7 samples.

Results

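The genes of 7 islet peptide hormones were followed on every array of the series: Ins2, Iapp, Gcg, Sst, Ppy, Pyy and Ghrl. They were chosen by gene symbol, with 1 transcript cluster (the set of probes that measures a gene) found for each of the 7, among 22198 transcript clusters in all. RNA came from GFP-positive cells sorted from dispersed islets of 2-week-old mice, male per the methods, and was measured on Affymetrix Clariom S arrays. The labels give the strain as C57BL/6, and the methods give the Raptor flox mice as C57BL/6J and the RIP-Cre line as of mixed background, C57BL/6J with a second strain. The 3 WT arrays came from RIP-Cre; Raptor+/+; Rosa26 GFP mice. The 4 KO arrays came from RIP-Cre; Raptor-/-; Rosa26 GFP mice, in which Raptor, the defining subunit of mTOR complex 1, is deleted only in cells that expressed Cre. Cells of other types in a pool would keep the gene. Both groups carried both the Cre transgene, driven by the rat insulin promoter, and the GFP reporter of cells in which Cre had acted. Each array held RNA pooled from several animals, so the spread between arrays is a spread between pools.

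Each islet cell type is named for the hormone it releases. β-cells make insulin, which lowers blood glucose, and co-release amylin, the product of Iapp. α-cells make glucagon from Gcg, which raises glucose output by the liver. δ-cells make somatostatin (Sst), a local inhibitor of both, PP cells make pancreatic polypeptide (Ppy), and the rare ε-cells, most frequent around birth, make ghrelin (Ghrl). Peptide YY (Pyy), of the same family as pancreatic polypeptide, is found in several islet cell types and in gut endocrine cells. All of them are cut from larger precursors and stored in secretory granules. The levels asked how much message of each hormone was present in cells sorted as β-cells, and whether it differed without Raptor.

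Upstream sequences were taken from RefSeq (GRCm38.p6), where 6 of the 7 genes had an entry, Ins2 being the other. The 250 bases before the annotated start of Sst, Ppy and Gcg are shown, because Sst and Ppy were lowest on the same arrays, whereas Gcg never left the upper limit of the scale. They lie on the minus strand at chr16:23890845-23891094, chr11:102101320-102101569 and chr2:62483654-62483903, and run 5′ to 3′. Capitals mark matches on either strand to TGACGTCA (the cAMP response element), TATAAA (the TATA box) and TGCTGAC (part of the recognition element of Maf factors).
Sst: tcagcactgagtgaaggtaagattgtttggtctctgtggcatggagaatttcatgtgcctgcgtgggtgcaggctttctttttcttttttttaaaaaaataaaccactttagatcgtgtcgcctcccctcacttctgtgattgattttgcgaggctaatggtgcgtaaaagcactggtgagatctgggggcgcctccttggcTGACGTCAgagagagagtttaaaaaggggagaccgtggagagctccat
Ppy: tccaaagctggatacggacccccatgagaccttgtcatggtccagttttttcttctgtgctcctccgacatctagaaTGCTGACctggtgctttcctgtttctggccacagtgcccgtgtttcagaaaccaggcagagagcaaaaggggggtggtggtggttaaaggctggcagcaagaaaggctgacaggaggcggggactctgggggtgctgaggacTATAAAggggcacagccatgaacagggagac
Gcg: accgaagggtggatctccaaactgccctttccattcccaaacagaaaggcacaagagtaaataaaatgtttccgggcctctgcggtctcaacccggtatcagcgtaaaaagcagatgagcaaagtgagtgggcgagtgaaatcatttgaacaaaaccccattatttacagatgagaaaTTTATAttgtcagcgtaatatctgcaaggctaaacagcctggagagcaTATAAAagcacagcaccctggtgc

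The cAMP response element stood at -48 to -41 from the start of Sst, and 1.55% of 32851 upstream windows of this length held it. The Maf motif stood at -173 to -167 from the start of Ppy, a motif held by 3.81% of windows, and a TATA box at -31 to -26. Gcg had the TATA letters at -72 to -67, in reverse, and at -24 to -19, and 12.4% of windows held them. No marked match overlapped another, and a match is a description of the letters only. No exact match to the letters of the 3 motifs was found in the windows of Iapp, Pyy and Ghrl. Variants of the motifs, such as other forms of a TATA box, were not searched. Ppy and Pyy are neighbours on chromosome 11, with 0 annotated genes between them.

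Values are log2 signals as deposited, and array medians lay between 5.52 and 5.66. The scale had an upper limit, at which 14 to 18 transcript clusters of an array were tied. It was 19.93 on 6 arrays, which is log2 of 1000000, and 19.81 on KO replicate 3. A value at the limit is only a bound on the signal, and signals of different probes do not order the amounts of different messages. The arrays least like the others were WT replicate 3 and KO replicates 3 and 4, with median correlations of 0.923 to 0.937 against 0.953 to 0.961 for the remaining 4. The targeted gene, Rptor, was 5.95, 5.28 and 6.04 in WT and 6.00, 5.95, 4.53 and 8.35 in KO (replicates in order, here and below), so it did not separate the groups. No source used here says where its probes lie relative to the deleted part. In older mice of this genotype, the paper reports barely detectable Raptor mRNA in β-cells and less RAPTOR protein in islets.

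Ins2, the insulin gene measured under a name here, was at the limit on all 7 arrays. It was 19.93 on every WT array and 19.93, 19.93, 19.81 and 19.93 in KO. Gcg gave the same 7 values. The cells had been sorted by GFP as β-cells, and the methods state that the sorted cells were not fully pure. The glucagon message was at the limit on the 3 WT arrays as on the 4 KO arrays, and the part of other cells in it was not tested. No difference between WT and KO could thus be read for either hormone, in either direction. Only 12 transcript clusters were at the limit on all arrays, and 3 of these had a gene name, the last being Rpl41, a ribosomal protein gene.

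Iapp, the second β-cell hormone, was at the limit on 6 arrays. Its signal was 19.93 on each WT array and 19.93, 19.93, 18.90 and 19.93 in KO. The value of KO replicate 3 lay 0.91 below the limit of that same array, so it was not a value at a limit. Of 13 transcript clusters at the limit on the other 6 arrays, 12 were also at the limit on KO replicate 3 and Iapp was the only one below it. The fitted difference of -0.26 rested on that array alone and compared bounds, and its adjusted p was 1 in limma. Without KO replicate 3 no difference could be read.

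**Figure D1:**
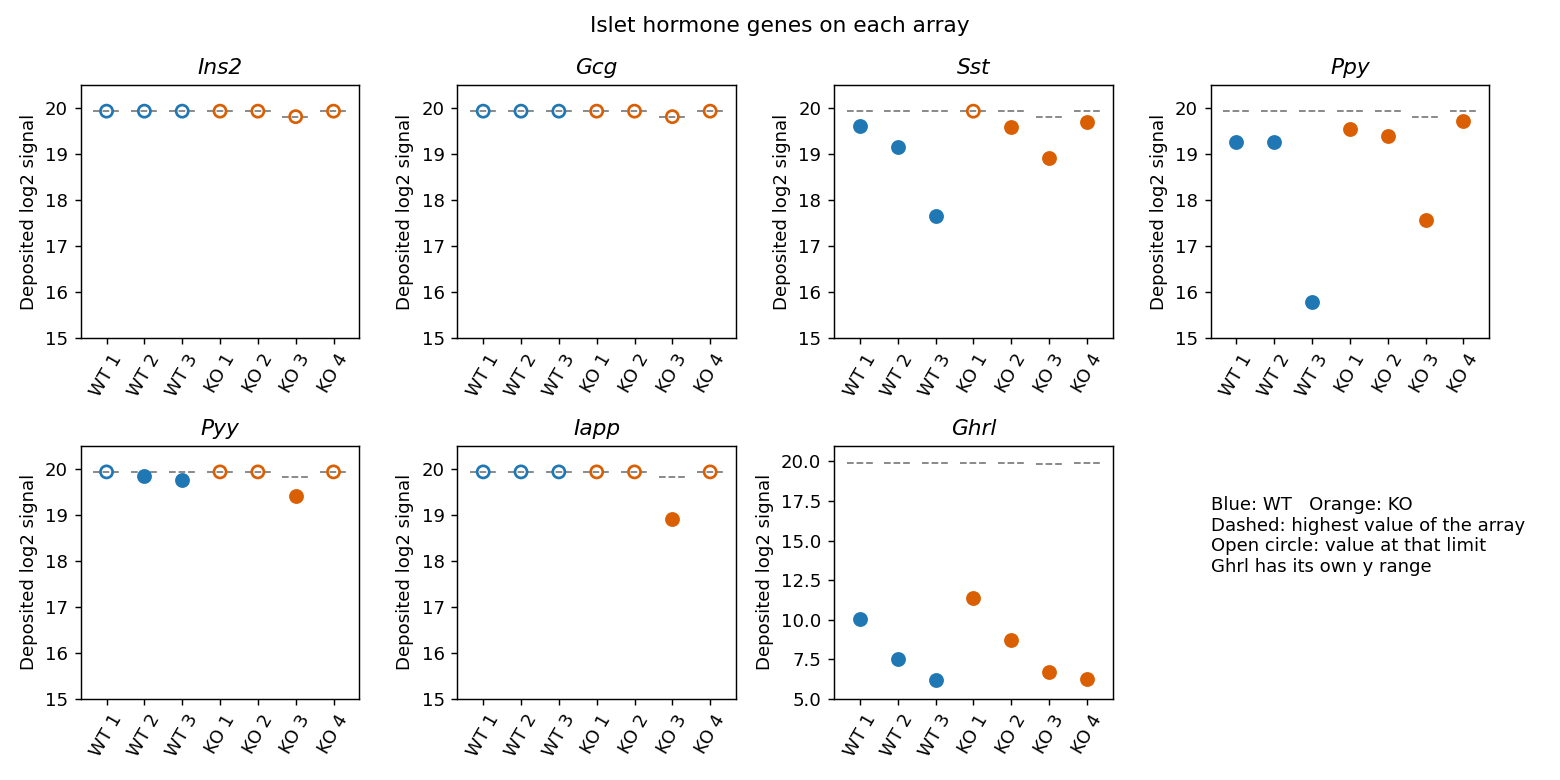
Deposited log2 signal (y) of the 7 hormone genes on the 3 WT (blue) and 4 KO (orange) arrays (x), with the upper limit of each array as a dashed line and open circles for values at it. Ins2 and Gcg sat at the limit on all 7 arrays, whereas Sst and Ppy were lowest on WT replicate 3 and KO replicate 3 and Ghrl ran from 6.21 to 11.39.

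Somatostatin message was abundant in every pool and varied mainly with the array. Sst was 19.61, 19.16 and 17.65 in WT and 19.93, 19.58, 18.92 and 19.69 in KO, the first KO value being at the limit. WT replicate 3 was lowest and KO replicate 3 next, and the groups overlapped. The means were 18.81 ± 1.03 (SD, n = 3) in WT and 19.53 ± 0.43 (SD, n = 4) in KO. Since 1 KO value was at the limit, the KO mean is a lower bound and the difference was at least 0.72, or 1.65-fold on the deposited scale. With that value taken as deposited, its 95% interval was -0.41 to 1.85 and it did not pass (adjusted p = 1 in limma, and exact two-sided permutation p = 0.343, where 0.0286 is the smallest possible). It was 0.15 without WT replicate 3, and 0.37 on WT and KO replicates 1 and 2 alone.

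Pancreatic polypeptide message had the same pair of low arrays with a wider range. Ppy was 19.25, 19.25 and 15.78 in WT and 19.55, 19.38, 17.56 and 19.72 in KO, never at the limit. The other 5 arrays lay between 19.25 and 19.72. The lowest and the highest array differed by 3.94, or 15.3-fold, and the spread within groups exceeded that of 97.1% of all transcript clusters. Means were 18.09 ± 2.00 (SD, n = 3) in WT and 19.05 ± 1.0 (SD, n = 4) in KO. The difference was 0.96 (95% interval -1.21 to 3.13), with an adjusted p of 1 in limma and an exact two-sided permutation p of 0.343. Without WT replicate 3 it turned to -0.20, and on WT and KO replicates 1 and 2 alone it was 0.22.

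Peptide YY, encoded next to pancreatic polypeptide, had the same pair of arrays lowest, in the reverse order and over a much narrower range. Pyy was 19.93, 19.85 and 19.75 in WT and 19.93, 19.93, 19.41 and 19.93 in KO, with 4 of the 7 values at the limit. Its lowest array was KO replicate 3, and WT replicate 3 was next. The difference of -0.04 (adjusted p = 1 in limma) compared bounds in part, and it was 0.09 without KO replicate 3. For Pyy as for Iapp the exact permutation p was 1. With 6 of the 7 Iapp values tied at the limit, that p could not have been small, and 4 tied values made the test of Pyy coarse.

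Ghrelin message was the only one of the 7 that lay well inside the scale. Ghrl was 10.03, 7.53 and 6.21 in WT and 11.39, 8.73, 6.70 and 6.24 in KO. Replicate 1 was the highest array in both groups, and KO replicate 4 was close to WT replicate 3 at the bottom. The range of 5.18 corresponds to 36.3-fold, and the spread within groups exceeded that of 99.5% of all transcript clusters. The means of 7.92 ± 1.94 (SD, n = 3) and 8.27 ± 2.35 (SD, n = 4) differed by 0.34 (95% interval -2.82 to 3.51, adjusted p = 1 in limma, exact two-sided permutation p = 0.80). The difference was -0.70 without KO replicate 1, -0.52 without WT replicate 3, 1.40 without WT replicate 1 and 1.28 on WT and KO replicates 1 and 2 alone. KO replicate 4 was thus high for Sst and Ppy but low for Ghrl, and these 3 messages did not share a single order of arrays.

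None of the 5 genes below the limit on at least 1 array passed an adjusted p of 0.05, where 0 of the 22198 transcript clusters (0%) did. None had an unadjusted p below 0.05, against 389 transcript clusters or 1.75%, and the WT and KO values of Sst, Ppy and Ghrl overlapped, against 3.2% of transcript clusters whose groups did not overlap. A p above the threshold does not show that levels were equal. The intervals of Ppy and Ghrl still hold more than 1 log2 unit in both directions, and that of Sst does in the upward direction.

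**Figure D2:**
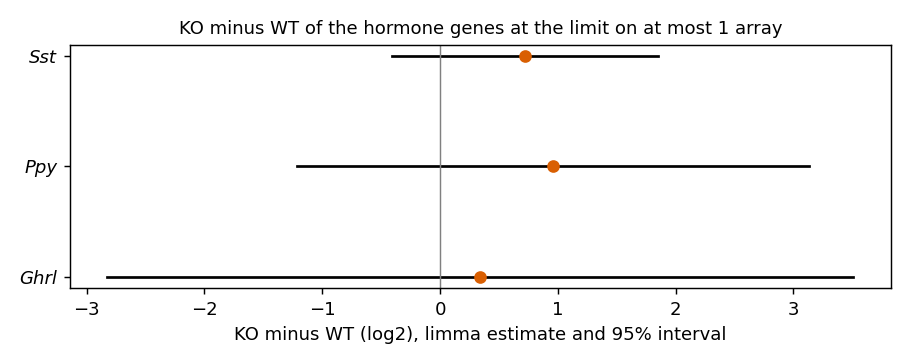
KO minus WT difference (x, log2) of Sst, Ppy and Ghrl (y), the hormone genes at the limit on at most 1 array, as the limma estimate (point) with its 95% interval (line) over 3 WT and 4 KO arrays. All 3 intervals contain 0, and that of Ghrl, from -2.82 to 3.51, is the widest.

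The titles number the arrays of both groups from 1, and arrays of equal number deviated together over all transcript clusters. Within these numbered pairs Sst, Ppy and Ghrl were each above WT in 3 of 3, that is 3 of the 7 genes, where 11.8% of all transcript clusters were so in the same direction. This count was made after the values had been seen. Sst was higher by at least 0.32, by 0.42 and by 1.27 in pairs 1, 2 and 3. Ppy was higher by 0.30, 0.13 and 1.78, the second of which became -0.07 after quantile normalization. Ghrl was higher by 1.36, 1.20 and 0.49. In a fit blocked on the replicate number, to which KO replicate 4 adds nothing, the differences were 0.67 for Sst (unadjusted p = 0.0701 in limma), 0.74 for Ppy (0.12) and 1.02 for Ghrl (0.0143). All 3 had an adjusted p of 0.949. With that block 658 transcript clusters had an unadjusted p below 0.05.

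**Figure D3:**
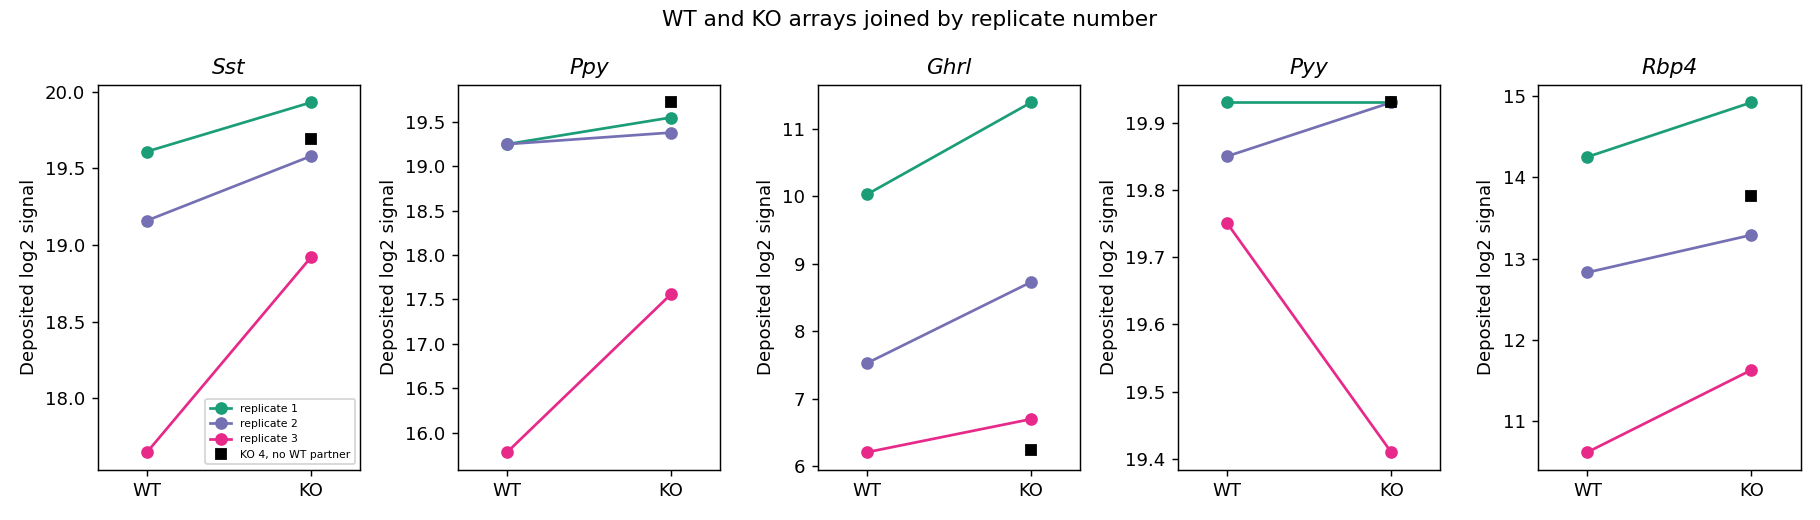
Deposited log2 signal (y, a range of its own in each panel) of Sst, Ppy, Ghrl, Pyy and Rbp4 in WT and KO (x). Rbp4 is the brightest of 4 δ-cell markers, and the others are not shown. Lines join arrays of equal replicate number, and a square marks KO replicate 4, which has no partner. Lines rise in all 3 pairs for Sst, Ppy, Ghrl and Rbp4, and fall in pair 3 for Pyy.

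Markers of other pancreatic cells were read on the same arrays, and in sorted bulk RNA a larger share of a cell type and more message per cell cannot be told apart. Of the 4 δ-cell markers 3 were above and 1 below WT, with a median difference of 0.78 and 0 at an unadjusted p below 0.05. Rbp4, a retinol carrier and the brightest of them, was 14.25, 12.83 and 10.62 in WT and 14.92, 13.29, 11.63 and 13.77 in KO, lowest on the same 2 arrays as Sst and above WT by 0.67, 0.46 and 1.01 in the pairs. The mean of the 4 markers lay between 6.47 and 7.13 in WT and between 6.68 and 7.80 in KO. It was above WT by 0.67, 0.16 and 0.70 in the pairs (exact two-sided permutation p = 0.114 without pairing). Hhex, the transcription factor of δ-cells, was 5.75, 4.61 and 5.83 in WT and 7.76, 4.63, 7.75 and 5.25 in KO, and did not have the pattern of Sst. Ghsr, the ghrelin receptor of δ-cells, stayed between 4.51 and 4.95 and was below WT in pairs 2 and 3. Lepr was 3.73, 3.97 and 4.51 in WT and 3.61, 4.3, 4.64 and 6.66 in KO, so it was below WT in pair 1 and highest on KO replicate 4.

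Gcg at the limit was accompanied by other messages known from α-cells. Ttr, which encodes transthyretin, was 19.37, 19.15 and 19.11 in WT and 19.47, 19.55, 17.78 and 19.37 in KO, and Tm4sf4 ran from 15.84 to 17.63. The transcription factor genes of the α-cell list were dim, with Irx1 between 3.18 and 4.22, Irx2 between 5.54 and 6.36 and Pou3f4 between 4.16 and 4.46. Of the 7 measured α-cell markers 3 were above and 4 below WT, with a median difference of -0.17 and 0 at an unadjusted p below 0.05. Their mean lay between 9.76 and 10.17 in WT and between 9.40 and 10.02 in KO. The 12 measured β-cell markers had a mean between 12.70 and 13.29 in WT and between 11.69 and 13.24 in KO. Of them 2 were above and 10 below WT, with a median difference of -0.63 beside 0.01 over all transcript clusters. Slc2a2 and Slc30a8, which bring glucose into the cell and zinc into the insulin granule, had an unadjusted p below 0.05 (0.0057 and 0.0382 in limma). So did 1.75% of all transcript clusters, and Slc2a2 and Slc30a8 each had an adjusted p of 1. For both, the WT and KO values did not overlap, against 3.2% of all transcript clusters.

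Acinar genes, which mark the enzyme-secreting exocrine cells, varied most. Of 18 measured, 15 were above and 3 below WT (median 0.61), and 0 had an unadjusted p below 0.05. The mean of 18 markers was 11.54, 14.98 and 7.25 in WT and 9.69, 13.0, 8.78 and 15.75 in KO. KO minus WT was -1.85, -1.97 and 1.53 in pairs 1, 2 and 3, so the acinar mean was higher in KO only in pair 3, while KO replicate 4, the highest array, has no partner. WT replicate 3 and KO replicate 3, the low arrays of Sst and Ppy, were also the lowest for acinar genes, and Amy2a5, an amylase gene, was itself at the limit on WT replicate 2 and KO replicate 4. Over the arrays, the means of duct cell markers (6.68 to 7.51), mesenchymal (4.76 to 6.98), endothelial (4.23 to 5.10) and immune cell markers (5.65 to 6.44) ranged less. Of these lists only the immune one had a member with an unadjusted p below 0.05. Ptprc, the pan-leukocyte antigen, was 7.63 ± 0.25 in WT and 6.75 ± 0.65 in KO (SD, n = 3 and 4) with no overlap (unadjusted p = 0.0477 and adjusted p = 1 in limma). Over all transcript clusters, 1.75% had an unadjusted p below 0.05 and 3.2% had no overlap. The part of other cell types in the levels of the hormone genes was not tested.

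**Figure D4:**
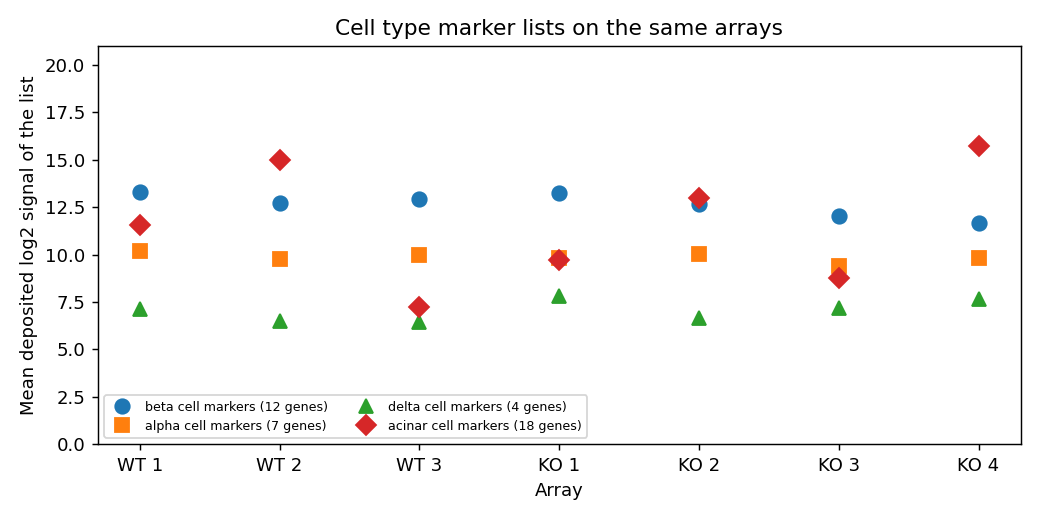
Mean deposited log2 signal (y) of the measured β-, α-, δ- and acinar cell markers on the 7 arrays (x). The acinar mean runs from 7.25 to 15.75 and is lowest on WT replicate 3 and KO replicate 3, whereas the means of the α- and δ-cell markers stay within 0.78 and 1.32.

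Among other peptide hormones and neuropeptides, 16 of 24 measured were above and 8 below WT, with a median difference of 0.03 beside 0.01 over all transcript clusters, and 0 had an unadjusted p below 0.05. The brightest were Ucn3, the peptide of mature β-cells that stimulates δ-cells, at 17.21 ± 0.82 in WT and 16.29 ± 1.11 in KO (SD, n = 3 and 4), and neuropeptide Y. Npy was 9.51, 9.67 and 14.19 in WT and 9.04 to 10.37 in KO, so WT replicate 3 was high for this relative of Ppy where it was low for Ppy itself. Penk, the enkephalin precursor, was 4.34 ± 0.20 and 4.90 ± 0.34, and Adcyap1, the PACAP precursor, was 3.11 ± 0.32 and 3.63 ± 0.22. The groups did not overlap for 2 of the 24 genes, against 3.2% of all transcript clusters. Adcyap1 was among the 2, but its unadjusted p was 0.0725 in limma.

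Of 18 measured genes of the receptors that read these hormones, 11 were above and 7 below WT, with a median difference of 0.09, and 0 had an unadjusted p below 0.05. Glp1r, the receptor for the intestinal product of Gcg, was brightest at 15.09 ± 0.37 in WT and 14.48 ± 0.62 in KO. Sstr4, a somatostatin receptor, was 4.45 ± 0.19 and 5.06 ± 0.65, and Igf1r was 7.85 ± 0.52 and 8.11 ± 0.53. For each of these the WT and KO values overlapped, against 3.2% of all transcript clusters whose groups did not overlap.

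Of 9 measured genes of prohormone processing, 3 were above and 6 below WT, with a median difference of -0.05 and 0 at an unadjusted p below 0.05. Cpe, the carboxypeptidase that trims cut hormones, was at the limit on 5 arrays and 19.90 and 19.88 on KO replicates 2 and 4. Ero1b, an oxidase for disulfide bonds of proinsulin, was 17.54 ± 0.065 in WT and 17.07 ± 0.46 in KO. Scg5, the chaperone of a prohormone convertase, was 15.06 ± 0.48 in WT and was lowest, at 11.96, on KO replicate 3, the array on which Iapp also left the limit. All 3 genes of hormone breakdown were below WT, led by Dpp4, the protease of incretins, at 8.38 ± 0.56 and 7.84 ± 0.50, again with 0 at an unadjusted p below 0.05.

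Transcription factors of hormone genes were divided, with 11 of 21 measured above and 10 below WT, a median difference of 0.04 and 0 at an unadjusted p below 0.05. For 1 of the 21 the groups did not overlap, against 3.2% of all transcript clusters. Rfx6, needed for several islet cell types, was 13.44 ± 0.50 in WT and 12.62 ± 0.78 in KO, and Insm1 was 4.96 ± 0.17 and 4.64 ± 0.16. Pax6, an activator of insulin, glucagon and somatostatin genes, was 14.25, 14.18 and 9.93 in WT and 14.38, 12.22, 12.30 and 7.81 in KO. Its lowest arrays were KO replicate 4 and WT replicate 3, which were also lowest for Ghrl, while Sst and Ppy were high on KO replicate 4.

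The genes whose profile over the 7 arrays was closest to a hormone gene were found by the root mean square difference of mean-centred values, as a description only. Closest to Ppy were Tfb2m (0.24), the developmental transcription factor gene Prox1 (0.25) and Ankrd17 (0.30), against a median of 1.42 over all named genes. Prox1 was 12.44, 12.37 and 8.96 in WT and 12.90, 12.74, 10.37 and 12.35 in KO. Closest to Sst were Sdhaf2 (0.20), the sodium channel gene Scn3a (0.21) and Secisbp2l (0.21), against a median of 0.84. Ghrl had no match as close, its nearest being Zbtb44 (0.74), Stxbp4 (0.75) and Anpep (0.78) against a median of 1.94.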

How the data were processed

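The authors deposited 1 log2 value per transcript cluster and array. GeneSpring is named in the study's methods, and MAS5 and Affymetrix Expression Console in the submitters' processing notes. Background correction and summarisation are not given in the sources used here, nor are detection calls, so dim signals were kept. The platform annotation gave 1 symbol for 19565 of 22198 transcript clusters, and 2633 were unnamed here; Ins1 was not named and not analysed here. Symbols of the 7 hormone genes were matched by gene identifier to RefSeq. Deposited values were not normalized further, because the scale limit would be hidden. Limma 3.58.1 in R 4.3.3 (lmFit, eBayes, two-sided, no covariate) was fitted over all 22198 transcript clusters on 7 arrays, with Benjamini-Hochberg adjustment, and was tested on simulated data. Single levels were compared by exact permutation over 35 assignments of arrays (scipy 1.17.1). The number of arrays limits the precision.

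Equal replicate numbers in the titles paired the arrays: deviations from group means (replicates 1 to 3) correlated at 0.256, 0.25 and 0.239 for equal and at -0.238 to 0.0614 for unequal numbers. Centring on the group means pulls the values for unequal numbers down where those for equal numbers are positive. The negative values are thus not separate evidence of pairing. What the numbers mark is not stated. No block entered the main fit.

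The hormone genes and all lists were chosen with earlier results of these data known. Genes to name were all hormone genes, the 2 members of each list with the smallest p and the 2 with the highest mean, and the 3 nearest profiles for hormone genes ranging over more than 1. Not all of them are printed, and the profiles nearest to Iapp are left out because 6 of its 7 values were at the limit. Irx1, Irx2, Pou3f4, Ghsr, Rptor and Rpl41 were named outside that rule, after their values were seen. Alternatives were quantile normalization, median centring, cyclic loess, a filter on dim transcript clusters (below the 25th percentile), trend and robust variances, array weights, the replicate block, the methods' t-test, values at the limit set to missing, and each array left out. Raising KO replicate 3 to the common limit, and WT and KO replicates 1 and 2 alone, were chosen after seeing the data.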

Additional observations from a re-analysis of the deposited data

Results flagged for a closer look

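In 5 of 20 groups of 4 KO values tested (7 hormone genes and 13 list means), 1 array was flagged as apart from the other 3. Among values without ties, chance flags about 1 in 20. In all 5 the array was KO replicate 3. For Ins2 and Gcg (gap of 1 of the range each) the other 3 arrays were tied at 19.93 and KO replicate 3 was at its own limit of 19.81. For Iapp and Pyy the gap was also 1 of the range, with the others tied at 19.93 and KO replicate 3 at 18.90 and 19.41, below its limit. With 3 of 4 values tied, the gap is 1 of the range whatever its size. The flags of Ins2, Gcg, Iapp and Pyy thus followed from the ties, and the chance rate does not apply to them. For Ppy the gap was 0.843 of the range, with 17.56 against 19.38 to 19.72.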

How the results depend on the processing

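No hormone gene passed an adjusted p of 0.05 under any alternative, and the smallest adjusted p over all of them was 0.949. The difference of Sst stayed positive under all 18 alternatives, from 0.15 to 1.13, both ends being arrays left out. Leaving out each array in turn gave -0.20 to 1.54 for Ppy, -0.70 to 1.40 for Ghrl, -0.09 to 0.09 for Pyy (0 without WT replicate 1) and -0.34 to -0.26 for Iapp, with no value for Iapp without KO replicate 3. Ppy turned without WT replicate 3, and Ghrl without WT replicate 3 or KO replicate 1. Pyy turned to 0.087 without KO replicate 3, 0.13 with cyclic loess, 0.0074 with quantile normalization and 0.04 on WT and KO replicates 1 and 2 alone; the cause was not tested. Over the array, 389 transcript clusters had an unadjusted p below 0.05, against 658 with the replicate block and 308 to 676 with each array left out (676 without KO replicate 1), and 0 passed the adjusted threshold under any. The replicate block changed no call at the adjusted threshold, whereas the unadjusted limma p of Ghrl went from 0.809 to 0.0143 and its difference from 0.34 to 1.02. The mean over transcript clusters of a symbol was not run, as each hormone gene had 1. Depth of signal over background was not known, and the scale limit hid any change in Ins2 and Gcg.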
